A study of Mus musculus with 4 samples.

Results

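The 31 genes described here encode the invariant chains of the mouse T cell receptor, its coreceptors, and the receptors, kinases and adaptors that act with it. They were taken by symbol from the count tables, and all 31 were found among the 26214 symbols listed. Expression was measured by RNA sequencing of stromal vascular cells from inguinal white fat, the pellet left once digested tissue has been freed of floating adipocytes. The treated mice received MHE, a medicinal herb extract, and the control mice received phosphate-buffered saline (PBS), with 2 libraries labelled as biological replicates for each. The protocol text speaks of triplicates, of which 2 per group were analysed here. Strain, sex, age, diet, the composition, dose and duration of MHE, and whether animals were pooled are not stated in the labels, nor is whether the lymph node that lies in the inguinal fat pad of mice was taken out.

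The antigen-binding chains of the T cell receptor have no signalling part of their own. They depend on the CD3 gamma, delta and epsilon chains and on the zeta chain. The cytoplasmic tyrosines of these chains are phosphorylated by LCK, a kinase that the CD4 and CD8 coreceptors bind. ZAP-70 then docks on those tyrosines and phosphorylates the adaptors LAT and SLP-76, from which the calcium, RAS and protein kinase C branches start. T cells live in small numbers in healthy fat and are the main population of the lymph node cortex between follicles. Genes of the antigen-binding chains themselves were not analysed here.

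Library totals lay between 27161882 and 33391075 counts, so the totals differed far less than the members did. CPM below are counts scaled to library totals adjusted by TMM factors, and over log2 CPM the replicates correlated at r = 0.971 for MHE and 0.942 for PBS across genes, which are not independent replicates. Counts in 7 markers of mature adipocytes took 1.19% to 2.90% of each library, and 8 markers of fibroblasts and adipocyte progenitors took 0.117% to 0.304%, so adipocyte RNA was present in a preparation labelled as stromal cells.

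All 31 T cell receptor genes stood higher in both MHE libraries than in both PBS libraries, and 24 of them rose in the edgeR quasi-likelihood test (Benjamini-Hochberg adjusted p under 0.05 over the 16196 genes tested). Of all tested genes, 3.97% rose, 0.963% fell, and 33.1% had both MHE libraries above both PBS libraries. A log2 fold change above 4 was found for 20 of the 31 and for 1.92% of tested genes. Together the 31 genes took 0.233% of counts in MHE replicate 1 (95% exact Clopper-Pearson interval 0.231 to 0.234) and 0.175% in MHE replicate 2 (0.174 to 0.177). They took 0.0213% in PBS replicate 1 (0.0208 to 0.0219) and 0.0142% in PBS replicate 2 (0.0138 to 0.0146). Intervals cover counting error only. The median log2 fold change of the 31 genes (MHE over PBS) was 4.85, against -0.02 for all tested genes, and single genes ranged from 1.24 (Fyn) to 6.07 (Trat1). In bulk RNA such as this, more T cells and more of these transcripts per cell cannot be told apart. All 31 passed the filter on low counts and had counts in every library.

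**Figure D1:**
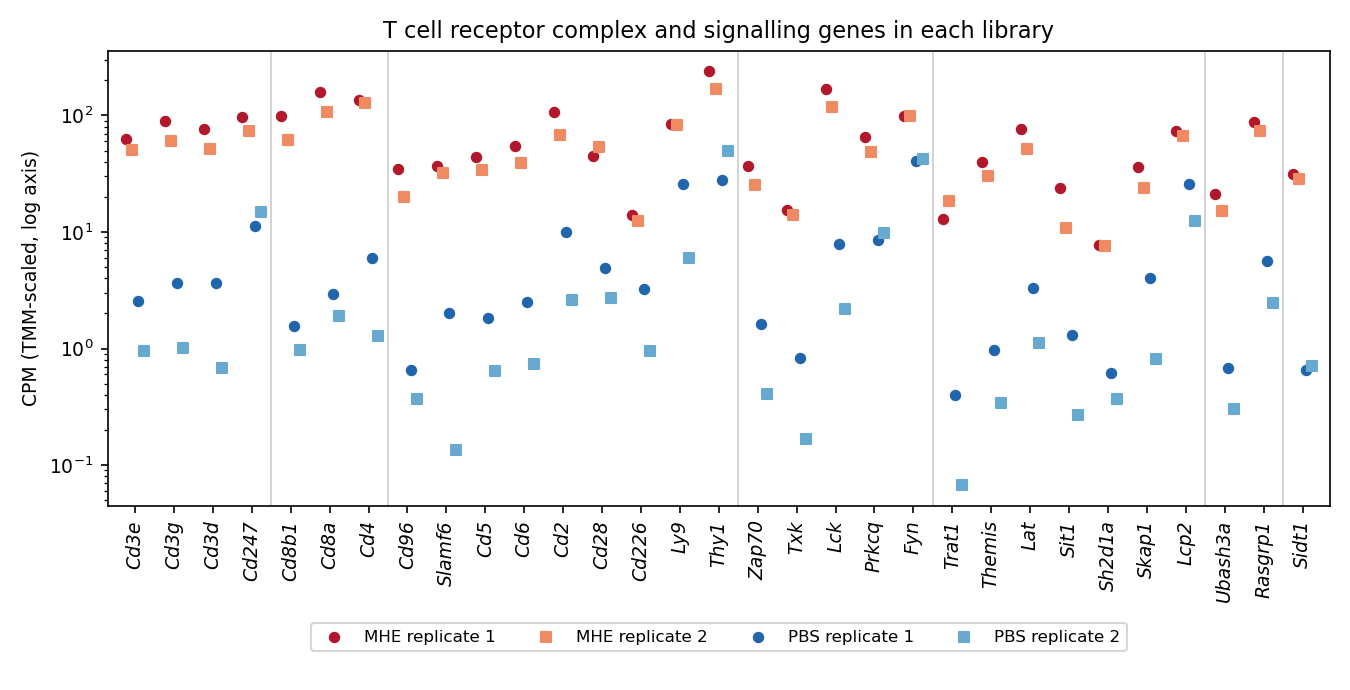
CPM (log axis) of the 31 genes in each library, grouped by role from left to right (CD3 and zeta chains, coreceptors, other surface receptors, kinases, adaptors, other regulators, Sidt1) and ordered by fold change within a role; red and orange marks are MHE libraries and dark and light blue marks PBS libraries. Both MHE marks lie above both PBS marks for every gene, with the narrowest gap at Fyn (98.0 CPM in the lower MHE library and 42.7 CPM in the higher PBS library).

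The calls rest on having both MHE libraries. Without MHE replicate 1 or without MHE replicate 2, none of the 31 genes and none of all genes passed the edgeR quasi-likelihood test, since the spread then came from the PBS pair alone, although 30 of the 31 had an unadjusted p under 0.05 in each case. All 31 passed without PBS replicate 1, where 10.5% of tested genes rose, and likewise without the other PBS library, where 7.45% rose. The size of the difference moved with the PBS library left out, the median log2 fold change being 5.88 without PBS replicate 1 and 4.16 without PBS replicate 2. Other ways of testing called 31 of the 31 genes and 9.85% of all genes higher (DESeq2), 29 and 5.5% (limma-voom), 22 and 3.28% (no filter on low counts), 26 and 5.09% (a stricter filter), 24 and 3.94% (median-of-ratios factors), 24 and 5.11% (library totals alone), and 23 and 3.54% (the replicate number as a block).

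The CD3 chains rose together and by nearly the same amount. Cd3e, the epsilon chain that pairs with both gamma and delta, had 62.2 and 50.8 CPM in MHE libraries, against 2.56 and 0.946 CPM in PBS libraries (log2 fold change 5.01 ± 0.53 SE, adjusted p = 0.0221 by edgeR). Cd3g, the gamma chain, had 90.4 and 60.4 CPM with MHE and 3.68 and 1.01 CPM with PBS (5.01 ± 0.68, adjusted p = 0.0331 by edgeR). Cd3d, the delta chain, had 76.8 and 51.4 CPM with MHE and 3.68 and 0.676 CPM with PBS (4.88 ± 0.82, adjusted p = 0.0454 by edgeR), and without a filter on low counts its adjusted p was 0.0704. For each of these 3 genes the PBS libraries lay far below the MHE libraries, and PBS replicate 1 was 2.71 to 5.45 times as high as PBS replicate 2. Without PBS replicate 1 the log2 fold changes of Cd3d, Cd3e and Cd3g were 6.54, 5.88 and 6.20, and without PBS replicate 2 they were 4.13, 4.47 and 4.37.

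The 3 CD3 genes lie side by side on chromosome 9 (mm10, coordinates from the RefSeq table of GRCm38.p6). Cd3g (44969572 to 44980431, minus strand) and Cd3d (44981769 to 44987052, plus strand) are transcribed away from each other, with 1337 bases between them, and Cd3e (44998735 to 45009663, minus strand) follows 11682 bases further on. Promoter windows from RefSeq (GRCm38.p6), 250 bases before to 50 after the annotated start, were present for 21 of the 31 genes, with 26 windows in all. Windows of Cd3d, Cd3e, Lck and Lat are shown, each written 5′ to 3′ on the gene's own strand. Capitals mark the letters AGGAAG, a core of ETS factor sites, or TGTGGT, a core of RUNX factor sites, on either strand. These genes rose by nearly the same amount, and every window shown held a match. Other genes rose by a like amount but are not shown, among them Cd3g (log2 fold change 5.01), whose window held no match.

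Cd3d promoter (chr9:44981536-44981835, plus strand): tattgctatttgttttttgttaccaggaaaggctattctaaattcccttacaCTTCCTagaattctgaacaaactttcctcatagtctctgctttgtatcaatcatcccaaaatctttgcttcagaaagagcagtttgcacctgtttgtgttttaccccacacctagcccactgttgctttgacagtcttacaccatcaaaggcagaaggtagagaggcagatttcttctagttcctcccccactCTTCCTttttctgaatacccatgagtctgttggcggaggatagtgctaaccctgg

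Cd3e promoter (chr9:45009562-45009861, minus strand): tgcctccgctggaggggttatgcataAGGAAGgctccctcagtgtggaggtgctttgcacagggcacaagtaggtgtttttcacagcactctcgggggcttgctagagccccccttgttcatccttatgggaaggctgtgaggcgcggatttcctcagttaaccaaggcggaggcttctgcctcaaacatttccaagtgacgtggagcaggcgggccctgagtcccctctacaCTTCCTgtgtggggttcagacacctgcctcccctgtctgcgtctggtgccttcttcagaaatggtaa

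Lck promoter (chr4:129573592-129573891, minus strand): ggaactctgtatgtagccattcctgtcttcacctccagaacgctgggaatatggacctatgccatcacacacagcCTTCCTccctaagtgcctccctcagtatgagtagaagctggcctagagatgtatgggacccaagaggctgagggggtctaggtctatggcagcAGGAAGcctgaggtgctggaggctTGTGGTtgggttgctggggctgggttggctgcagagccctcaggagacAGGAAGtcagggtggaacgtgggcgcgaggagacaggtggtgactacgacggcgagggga

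Lat promoter (chr7:126369519-126369818, minus strand): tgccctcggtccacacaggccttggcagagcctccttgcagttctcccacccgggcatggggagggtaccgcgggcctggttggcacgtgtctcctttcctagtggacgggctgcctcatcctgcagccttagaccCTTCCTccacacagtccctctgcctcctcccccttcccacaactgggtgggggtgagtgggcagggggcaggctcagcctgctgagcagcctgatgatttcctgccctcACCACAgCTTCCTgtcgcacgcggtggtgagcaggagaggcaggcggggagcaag

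The Cd3d window held AGGAAG letters at -198 and -5 from the start and the Cd3e window at -224 and -17, both without TGTGGT. The Lck window shown held 3 matches to AGGAAG and 1 to TGTGGT, the other of the 2 Lck windows (chr4:129558323-129558622) held 1 and 0, and the Lat window held 2 and 1. The letters AGGAAG were in 50% of the 26 windows of these genes and in 35.4% of all 32851 windows of the same length, and TGTGGT in 23.1% and 16.8%. Of the other motifs searched on both strands, CTTTGA (TCF/LEF) was in 30.8% of the members' windows and 16.0% of all windows, CAGCTG (an E-box) in 15.4% and 16.3%, the GATA factor core AGATAA in 15.4% and 11.2%, and TATAAA, found in many core promoters, in 7.69% and 13.6%. No pair of these motifs has the same letters on either strand. The windows of Cd3g, Cd8a, Slamf6, Fyn, Themis, Ubash3a, Rasgrp1 and Sidt1 held neither AGGAAG nor TGTGGT. Genes with large and with small fold changes were thus both among those without a match.

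The zeta chain gene Cd247 (chromosome 1, 165779952 to 165871153) rose as well but behaved apart from its partners. It had 97.1 and 73.4 CPM with MHE, against 11.2 and 14.8 CPM with PBS (log2 fold change 2.71 ± 0.27 SE, adjusted p = 0.0212 by edgeR). Unlike the other 3 chains it was higher in PBS replicate 2 than in PBS replicate 1. There were 1.56 and 1.44 Cd247 counts for each Cd3e count in MHE libraries, against 4.37 and 15.6 in PBS libraries. In the GENCODE M21 annotation of the same build, 56.4% of the exon bases of Cd247 are also exon of Pou2f1, the gene of the widely expressed factor OCT-1, which lies on the opposite strand. The sources used here do not say whether strand was used in counting. If it was not, reads of both genes over that stretch cannot be told apart. Pou2f1 itself had 46.8 and 65.1 CPM with MHE and 18.6 and 23.9 CPM with PBS, and there were 2.08 and 1.13 Cd247 counts for each Pou2f1 count with MHE, against 0.601 and 0.620 with PBS. What this overlap contributes to the Cd247 counts was not tested.

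The coreceptor genes had the highest median log2 fold change of the role groups with 2 or more genes, at 5.78. Cd8b1, the beta chain of CD8, had 98.5 and 62.0 CPM with MHE and 1.55 and 0.980 CPM with PBS (log2 fold change 5.99 ± 0.41 SE, adjusted p = 0.0192 by edgeR). Cd8a, the alpha chain, had 161 and 107 CPM with MHE and 2.96 and 1.89 CPM with PBS (5.78 ± 0.39, adjusted p = 0.0192 by edgeR). Cd4, the coreceptor for MHC class II, which some macrophages and dendritic cells also carry, had 135 and 127 CPM with MHE and 5.99 and 1.28 CPM with PBS (5.17 ± 0.77, adjusted p = 0.0385 by edgeR). No coreceptor gene had overlapping groups. Without a filter on low counts the adjusted p of Cd4 was 0.0514. Without PBS replicate 1 the log2 fold changes of Cd8b1, Cd8a and Cd4 were 6.34, 6.13 and 6.65, and without PBS replicate 2 they were 5.70, 5.51 and 4.46.

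The balance of the CD8 and CD4 genes did not separate the groups. Cd8a made up 54.4% of Cd8a and Cd4 counts in MHE replicate 1 (95% exact interval 53.4 to 55.4) and 45.8% in MHE replicate 2 (44.6 to 47.0). It made up 33.1% in PBS replicate 1 (27.2 to 39.3) and 59.6% in PBS replicate 2 (49.0 to 69.6). The MHE libraries thus lay between the PBS libraries. Per exon length, the level of Cd8a was 1.32 and 0.937 times that of Cd4 in MHE libraries, against 0.548 and 1.63 times in PBS libraries. The log2 ratio was higher by 0.23 with MHE, with a spread between replicates of 0.82 (pooled SD, n = 2 each). The Cd8b1 to Cd8a count ratio was steadier, at 0.614 and 0.579 with MHE and 0.524 and 0.518 with PBS. The genes Cd8b1 and Cd8a lie 35934 bases apart on chromosome 6.

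Of the 9 other surface receptor genes, 5 rose and 4 did not pass. Cd96, a receptor of T and NK cells for nectin-like ligands, changed most, with 34.7 and 19.9 CPM in MHE libraries and 0.650 and 0.372 CPM in PBS libraries (log2 fold change 5.73 ± 0.49 SE, adjusted p = 0.0206 by edgeR). Cd5 and Cd6, neighbouring scavenger-type receptors on chromosome 19 that dampen receptor signals, rose by 4.99 and 4.85 on the log2 scale. Cd5 had 44.3 and 34.3 CPM with MHE and 1.84 and 0.642 CPM with PBS, and Cd6 had 54.4 and 38.9 CPM with MHE and 2.49 and 0.744 CPM with PBS. Cd28, the main costimulatory receptor, had 45.0 and 53.1 CPM with MHE and 4.91 and 2.70 CPM with PBS (3.69 ± 0.36, adjusted p = 0.0212 by edgeR), and was the only gene of this group that was higher in MHE replicate 2 than in MHE replicate 1. Thy1, a surface glycoprotein that fibroblasts and neurons also carry, had 239 and 167 CPM with MHE and 27.8 and 49.9 CPM with PBS (2.39 ± 0.38, adjusted p = 0.0429 by edgeR). It was the only receptor of these 9 that was higher in PBS replicate 2 than in PBS replicate 1. With the replicate number as a block its adjusted p was 0.0661.

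The 4 receptor genes that missed the threshold had both MHE libraries above both PBS libraries. Their CPM in PBS replicate 1 was 3.39 (Cd226) to 14.95 (Slamf6) times that in PBS replicate 2. Some genes that passed had similar PBS ratios, among them Cd6 (3.35), Cd4 (4.67) and Cd3d (5.45). Cd2, an adhesion receptor of T and NK cells, had 106 and 67.8 CPM with MHE and 10.03 and 2.60 CPM with PBS (log2 fold change 3.78 ± 0.70 SE, adjusted p = 0.0524 by edgeR). Slamf6, a receptor of the SLAM family found on T, B and NK cells, had 36.6 and 32.3 CPM with MHE and 2.02 and 0.135 CPM with PBS (5.003 ± 1.04, adjusted p = 0.0631 by edgeR). Cd226, an activating receptor that shares ligands with CD96, had 14.1 and 12.5 CPM with MHE and 3.21 and 0.946 CPM with PBS (2.68 ± 0.62, adjusted p = 0.0745 by edgeR). For Slamf6 the PBS libraries differed 14.95-fold, on 56 and 4 counts. Ly9, a SLAM family receptor of B and T cells, had 84.5 and 82.1 CPM with MHE and 25.7 and 5.95 CPM with PBS (2.40 ± 0.69, adjusted p = 0.108 by edgeR). All 4 stayed higher with MHE when either PBS library was left out. Cd2, Slamf6, Cd226 and Ly9 then had log2 fold changes of 5.05, 7.93, 3.79 and 3.79 without PBS replicate 1, or 3.13, 4.10, 2.06 and 1.71 with PBS replicate 2 left out. The 5 that passed had log2 fold changes of 2.01 (Thy1) to 6.17 (Cd96) without PBS replicate 1 and 2.88 (Thy1) to 5.39 (Cd96) without PBS replicate 2.

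**Figure D2:**
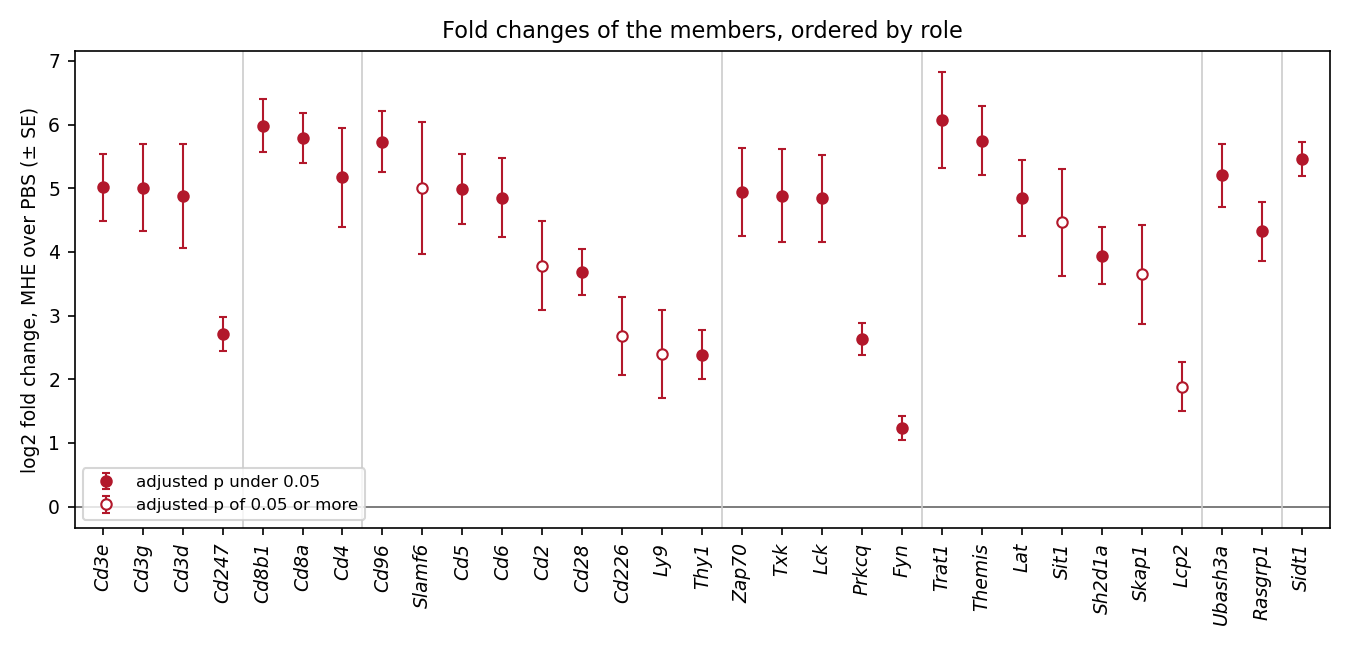
Log2 fold change (MHE over PBS, edgeR) with its standard error for each gene, ordered as in the plot of CPM; filled points passed at an adjusted p under 0.05 and open points did not. All points lie above 0, and Fyn, Lcp2, Thy1, Ly9, Prkcq, Cd226 and Cd247 form the lowest values, between 1.24 and 2.71.

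All 5 kinase genes rose. Lck, the kinase that starts the signal, had 168 and 119 CPM in MHE libraries and 7.83 and 2.20 CPM in PBS libraries (log2 fold change 4.84 ± 0.69 SE, adjusted p = 0.0364 by edgeR). Zap70, the kinase that docks on the phosphorylated receptor, had 37.0 and 25.2 CPM with MHE and 1.62 and 0.406 CPM with PBS (4.94 ± 0.69, adjusted p = 0.0347 by edgeR). The Zap70 to Lck count ratio hardly differed among libraries, at 0.220 and 0.212 with MHE and 0.207 and 0.185 with PBS. In PBS replicate 2 it rests on only 12 Zap70 and 65 Lck counts. Txk, a TEC family kinase, had 15.5 and 14.0 CPM with MHE and 0.830 and 0.169 CPM with PBS (4.89 ± 0.73, adjusted p = 0.0384 by edgeR, and 0.0502 with the replicate number as a block).

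Fyn and Prkcq rose by less. Fyn, a SRC family kinase found in many cell types, had 98.4 and 98.0 CPM with MHE and 40.7 and 42.7 CPM with PBS (log2 fold change 1.24 ± 0.19 SE, adjusted p = 0.0387 by edgeR). Prkcq, protein kinase C theta, which skeletal muscle also expresses, had 65.3 and 48.2 CPM with MHE and 8.52 and 9.77 CPM with PBS (2.63 ± 0.25, adjusted p = 0.0212 by edgeR). In both genes the PBS libraries were close to each other, unlike Lck and Zap70, which were 3.57 and 4.01 times as high in PBS replicate 1 as in PBS replicate 2. There were 0.585 and 0.826 Fyn counts for each Lck count with MHE, against 5.19 and 19.4 with PBS. Without PBS replicate 1 the log2 fold changes of Lck, Zap70 and Txk were 6.01, 6.23 and 6.40, and without PBS replicate 2 they were 4.20, 4.27 and 4.16. Fyn and Prkcq lay at 1.19 and 2.52 without PBS replicate 1 and at 1.28 and 2.75 without PBS replicate 2.

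Of the 7 adaptor genes, 4 rose. Lat, the membrane scaffold that ZAP-70 phosphorylates, had 76.6 and 51.3 CPM in MHE libraries and 3.32 and 1.12 CPM in PBS libraries (log2 fold change 4.85 ± 0.60 SE, adjusted p = 0.0270 by edgeR). Themis, a regulator of receptor signals that developing T cells need, had 40.0 and 30.5 CPM with MHE and 0.975 and 0.338 CPM with PBS (5.75 ± 0.55, adjusted p = 0.0212 by edgeR). Trat1, a transmembrane adaptor that associates with the receptor complex, had 12.9 and 18.4 CPM with MHE and 0.397 and 0.0676 CPM with PBS (6.07 ± 0.75, adjusted p = 0.0271 by edgeR, and 0.0539 with the replicate number as a block). Its PBS levels rest on 11 and 2 counts, and it was the highest fold change of the 31. Sh2d1a, the SAP adaptor of SLAM family receptors, had 7.68 and 7.51 CPM with MHE and 0.614 and 0.372 CPM with PBS (3.94 ± 0.45, adjusted p = 0.0248 by edgeR), its PBS levels resting on 17 and 11 counts. Exons of Tenm1 on the opposite strand cover 26.6% of the exon bases of Sh2d1a. Tenm1 itself had 0 and 1 counts with MHE and 2 and 7 counts with PBS. What this overlap contributes to the Sh2d1a counts was not tested.

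The remaining 3 adaptors did not pass. Lcp2, encoding SLP-76, which myeloid cells, mast cells and platelets also use, had 73.8 and 66.9 CPM with MHE and 25.7 and 12.5 CPM with PBS (log2 fold change 1.88 ± 0.38 SE, adjusted p = 0.0598 by edgeR). Skap1, an adaptor that links the receptor to integrin adhesion, had 36.2 and 24.1 CPM with MHE and 4.01 and 0.811 CPM with PBS (3.65 ± 0.77, adjusted p = 0.0654 by edgeR). Sit1, an inhibitory transmembrane adaptor, had 23.8 and 10.9 CPM with MHE and 1.30 and 0.270 CPM with PBS (4.47 ± 0.84, adjusted p = 0.0537 by edgeR). The MHE and PBS libraries did not overlap for any of them, and Sit1 had the widest MHE spread of the 31, at 2.19-fold. Log2 fold changes of Lcp2, Skap1 and Sit1 were 2.48, 5.19 and 5.97 without PBS replicate 1, or 1.46, 2.92 and 3.75 with PBS replicate 2 left out. Lat, Themis, Trat1 and Sh2d1a had log2 fold changes of 5.82, 6.67, 7.75 and 4.32 without PBS replicate 1, or 4.28, 5.18, 5.29 and 3.63 with PBS replicate 2 left out.

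Both other regulators rose, as did Sidt1. Ubash3a, a phosphatase-like protein that restrains receptor signalling, had 21.3 and 15.3 CPM in MHE libraries and 0.686 and 0.304 CPM in PBS libraries (log2 fold change 5.20 ± 0.50 SE, adjusted p = 0.0212 by edgeR). Rasgrp1, the exchange factor that activates RAS downstream of LAT, had 88.4 and 74.1 CPM with MHE and 5.67 and 2.47 CPM with PBS (4.32 ± 0.46, adjusted p = 0.0234 by edgeR). Sidt1, a transmembrane protein of the SID1 family, had 31.5 and 28.4 CPM with MHE and 0.650 and 0.710 CPM with PBS (5.45 ± 0.27, adjusted p = 0.0192 by edgeR). Sidt1 was thus even within each group, on 18 and 21 counts in the PBS libraries. Without PBS replicate 1 the log2 fold changes of Ubash3a, Rasgrp1 and Sidt1 were 5.88, 5.02 and 5.38, and without PBS replicate 2 they were 4.74, 3.85 and 5.53.

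Levels among the genes were compared per exon length (CPM per kilobase of GENCODE M21 exons, mean ± SD, n = 2). In MHE libraries Thy1 led at 67.8 ± 16.9, followed by Cd8b1 at 54.1 ± 17.4, Cd2 at 49.9 ± 15.6, Lck at 49.0 ± 12.0 and Cd8a at 36.8 ± 10.4, and neighbours in this order differed by less than the sum of their SDs. Txk was lowest at 1.35 ± 0.0985, next to Sh2d1a at 1.38 ± 0.0210. In PBS libraries the order was another one. There Thy1 (12.97 ± 5.22) and Fyn (9.55 ± 0.325) came first, then Ly9 (4.78 ± 4.22), Lcp2 (4.28 ± 2.10), Cd2 (3.63 ± 3.02) and Cd247 (2.44 ± 0.479), while Cd8b1 stood at 0.854 ± 0.273 and Cd8a at 0.667 ± 0.208. Fyn ranked 2 of 31 with PBS and 11 of 31 with MHE, and Cd8b1 ranked 11 with PBS and 2 with MHE.

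The 2 PBS libraries differed in these genes more than the 2 MHE libraries did. PBS replicate 1 was above PBS replicate 2 for 26 of the 31 genes, with a median CPM ratio of 2.88, against a ratio of 1.01 and 51.0% of genes over all tested genes. The other 5 were Cd247, Thy1, Fyn, Prkcq and Sidt1. Between the MHE libraries 29 of 31 genes were higher in replicate 1, with a median ratio of 1.32, against 0.995 and 49.6% over all tested genes, and the other 2 were Cd28 and Trat1. The 7 genes that missed the threshold had a median PBS ratio of 4.31, and the 24 that passed 2.50. Markers of B cells moved the same way: PBS replicate 1 was 5.10 to 45.9 times as high as PBS replicate 2 for the 8 B cell genes measured (median 22.5), against 0.557 (Thy1) to 14.95 (Slamf6) for the 31 T cell receptor genes. The 8 macrophage and myeloid markers were 1.08 to 3.21 times as high in PBS replicate 1 (median 2.48), and the part of these cells in the spread of the PBS libraries was not tested.

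**Figure D3:**
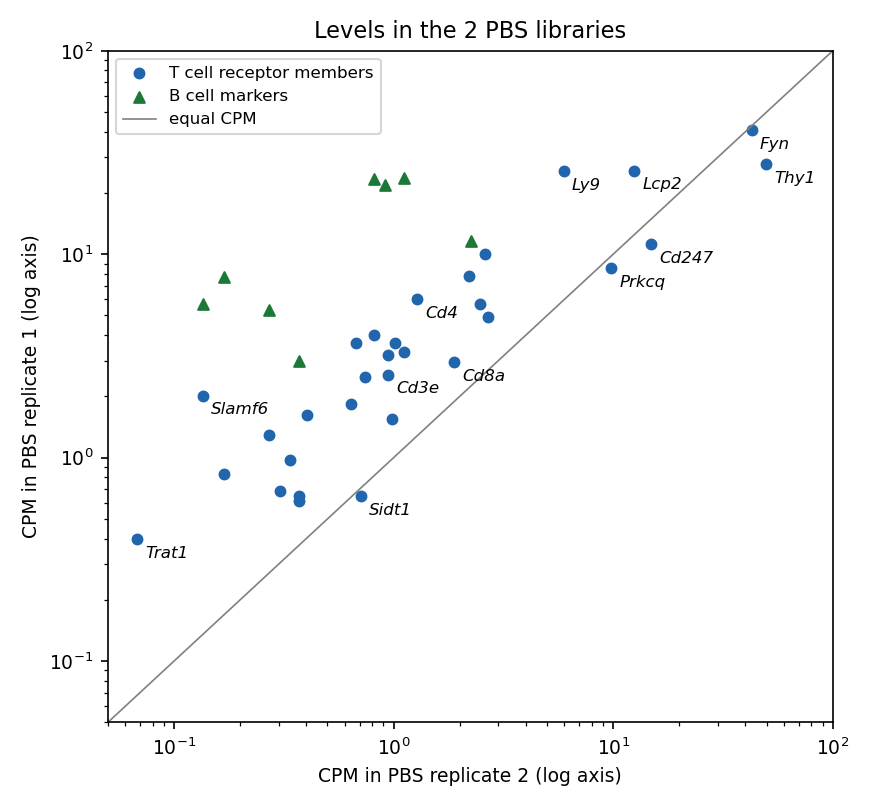
CPM in PBS replicate 1 (vertical) against PBS replicate 2 (horizontal), both on log axes, for the 31 T cell receptor genes (circles) and 8 B cell markers (triangles); the line marks equal levels. Most circles lie above the line, Fyn, Thy1, Cd247, Prkcq and Sidt1 lie on or below it, and the triangles lie further above it than most circles.

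Set against the CD3 genes within the same library, the members differed in how their ratios compared between groups. With Cd3d, Cd3e, Cd3g and Cd247 summed as the base, 19 genes had higher ratios in both MHE libraries than in both PBS libraries, 6 lower (Cd247, Thy1, Cd226, Fyn, Prkcq and Lcp2) and 6 overlapped. In PBS replicate 2, however, Cd247 made up 84.9% of that sum (53.0% in PBS replicate 1, and 29.7% and 31.1% in MHE libraries), so the ratios were also taken to Cd3d, Cd3e and Cd3g alone, a choice made after seeing the data. Then 16 genes had lower ratios in both MHE libraries, 3 higher (Cd8b1, Themis and Trat1) and 12 overlapped, so the base decided the split. The 6 genes that were lower against the first base were lower against the second as well. With 2 libraries a group, no single ratio can reach a two-sided exact permutation p below 1 in 3.

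Among the signalling genes Lck, Zap70 and Lat, the ratios differed little between libraries, although those of Lck and Lat belonged to the 16 that were lower in both MHE libraries. On the log2 scale the ratio of Lck to Cd3d, Cd3e and Cd3g was -0.45 and -0.46 with MHE and -0.34 and -0.26 with PBS, that of Zap70 was -2.63 and -2.69 with MHE and -2.60 and -2.65 with PBS, and that of Lat was -1.58 and -1.66 with MHE and -1.57 and -1.23 with PBS. These ratios spanned 0.5 or less over all 4 libraries, though in PBS replicate 2 they rest on only 65 Lck, 12 Zap70 and 33 Lat counts. At the other end, the ratio of Fyn was -1.22 and -0.73 with MHE and 2.03 and 4.01 with PBS, that of Lcp2 was -1.64 and -1.28 with MHE and 1.37 and 2.23 with PBS, and that of Thy1 was 0.06 and 0.04 with MHE and 1.48 and 4.23 with PBS. Fyn, Thy1 and Lcp2 thus had higher ratios in both PBS libraries than in both MHE libraries. Leaving those 3 genes out, the members' mean share of counts was 0.165% with MHE and 0.00837% with PBS. Those 3 had the lowest log2 fold changes of the 31 (1.24 for Fyn, 1.88 for Lcp2 and 2.39 for Thy1). Leaving them out thus raises the MHE to PBS ratio of the shares by construction.

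**Figure D4:**
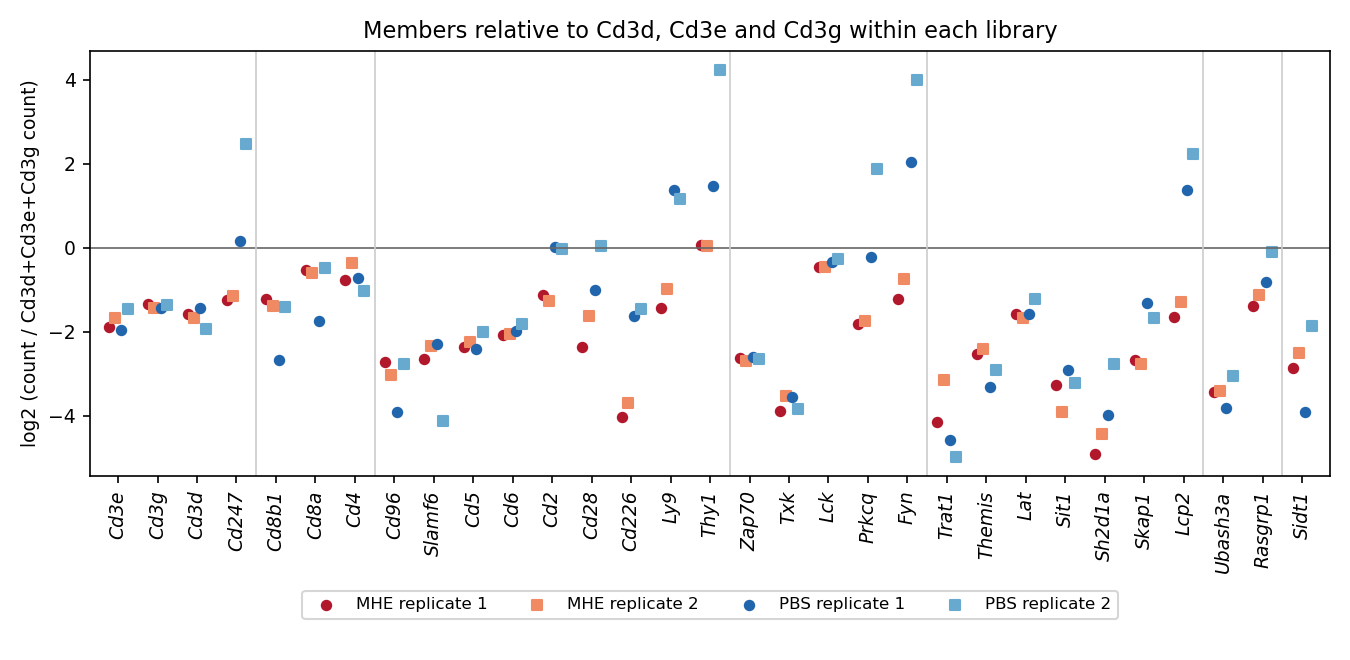
Log2 ratio of each gene's count to the summed count of Cd3d, Cd3e and Cd3g in the same library, with red and orange marks for MHE and dark and light blue marks for PBS libraries, ordered as in the plot of CPM. Lck, Zap70 and Lat sit at nearly the same height in all 4 libraries, while Cd247, Thy1, Prkcq, Fyn and Lcp2 sit higher in PBS libraries.

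Further genes of the receptor pathway, 43 genes listed by their known role, were mostly higher as well. A positive log2 fold change was found for 42 of the 43, against 7909 of the 16196 tested genes. Of the 43 genes, 16 rose, none fell and 27 did not pass, while 3.97% of all tested genes rose and 0.963% fell. The median log2 fold change of the 43 was 1.93, against -0.02 for all tested genes. Dgka, a diacylglycerol kinase that limits RASGRP1, rose by 2.99 ± 0.22 on the log2 scale (± SE), Pag1, an adaptor that recruits the inhibitory kinase CSK, by 2.67 ± 0.22, and Tespa1, a signalling protein of developing T cells, by 4.98 ± 0.47. The calcium sensor Stim1, which many tissues express, had the lowest log2 fold change (-0.89 ± 0.29, adjusted p = 0.132 by edgeR), with 73.6 and 101 CPM with MHE and 136 and 187 CPM with PBS. Plcg1, the phospholipase itself, had 73.3 and 80.0 CPM with MHE and 59.2 and 88.8 CPM with PBS, so its groups overlapped. The calls in this set were lost when either MHE library was left out, as they were over all tested genes. More of the set passed when either PBS library was left out, as did more of all tested genes.

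Markers of other lymphoid cells moved with the T cell receptor genes. Over all tested genes, 33.1% were higher in both MHE libraries and 3.97% rose. All 8 B cell markers were higher in both MHE libraries and 2 of them rose (Cd22 and Fcer2a); together they took 0.193% and 0.147% of counts with MHE, against 0.0102% and 0.000536% with PBS, and none was at 0. All 8 markers of NK and innate lymphoid cells were higher in both MHE libraries and 3 rose (Klra1, Eomes and Il18r1), with 0.0144% and 0.0125% of counts with MHE, against 0.00354% and 0.00260% with PBS. Markers of lymph node stroma and venules took 0.0870% and 0.0501% of counts with MHE, against 0.0143% and 0.00128% with PBS. Of the 5 tested, 3 rose (Glycam1, Cxcl13 and Tnfsf11). Ccl21a and Madcam1 did not pass (adjusted p = 0.319 and 0.112 by edgeR). Ccl21a held most of the list's counts in MHE libraries (20917 of 27009 and 10691 of 13611) and in PBS replicate 1 (3446 of 3972). In PBS replicate 2 it held 36 of 428. Ccl21a had 630 and 375 CPM with MHE and 124 and 1.22 CPM with PBS, so the PBS libraries differed widely. Of that list Ccl19 was at 0 counts in every library, Glycam1 at 0 in PBS replicate 2 and Madcam1 at 0 in PBS replicate 1. The part that any of these cells plays in the T cell receptor values was not tested.

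Of the thymocyte markers, Rag1 had 71 and 20 counts with MHE and 0 in both PBS libraries, and Ptcra, the surrogate alpha chain of immature T cells, had 0 and 2 counts with MHE and 2 and 0 with PBS. Dntt had 124 and 35 counts with MHE and 6 and 0 with PBS, Rag2 had 14 and 4 counts and Arpp21 10 and 2 counts with MHE, both 0 with PBS. Only Rag1, Dntt and Cd1d1 of this list were tested, and none passed (log2 fold changes 8.41, 4.49 and -0.84, adjusted p = 0.0651, 0.118 and 0.121 by edgeR). Counts of Rag1, Rag2, Dntt, Ptcra and Arpp21 lay far below those of the CD3 genes in the same libraries. The 4 chains together had 6724 to 10848 counts with MHE. Cd1d1 of the same list, which many cells express, had 6114 and 4410 counts with MHE and 7689 and 9684 with PBS.

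The summed shares of the macrophage, fibroblast and platelet marker lists overlapped between the groups. What these or other cells contribute to the values of Thy1, Fyn and Lcp2 was not tested. Macrophage and myeloid markers took 0.179% and 0.220% of counts with MHE and 0.303% and 0.109% with PBS, and 0 of 8 passed (lowest adjusted p = 0.303 by edgeR, and no gene of the list had an unadjusted p under 0.05). Fibroblast and adipocyte progenitor markers took 0.117% and 0.304% with MHE and 0.234% and 0.223% with PBS, and 0 of 8 passed. Platelet and megakaryocyte markers took 0.00529% and 0.00427% with MHE and 0.00538% and 0.00362% with PBS, and 0 of 4 tested passed. Of these lists, Dpp4 and Itga2b were nevertheless higher in both MHE libraries and Cd34 and Pf4 lower in both, with adjusted p of 0.0732, 0.165, 0.0954 and 0.284 by edgeR. Mature adipocyte markers took 2.12% and 1.19% with MHE and 2.35% and 2.90% with PBS, lower in both MHE libraries, and Lep (leptin) fell while the other 6 did not pass.

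**Figure D5:**
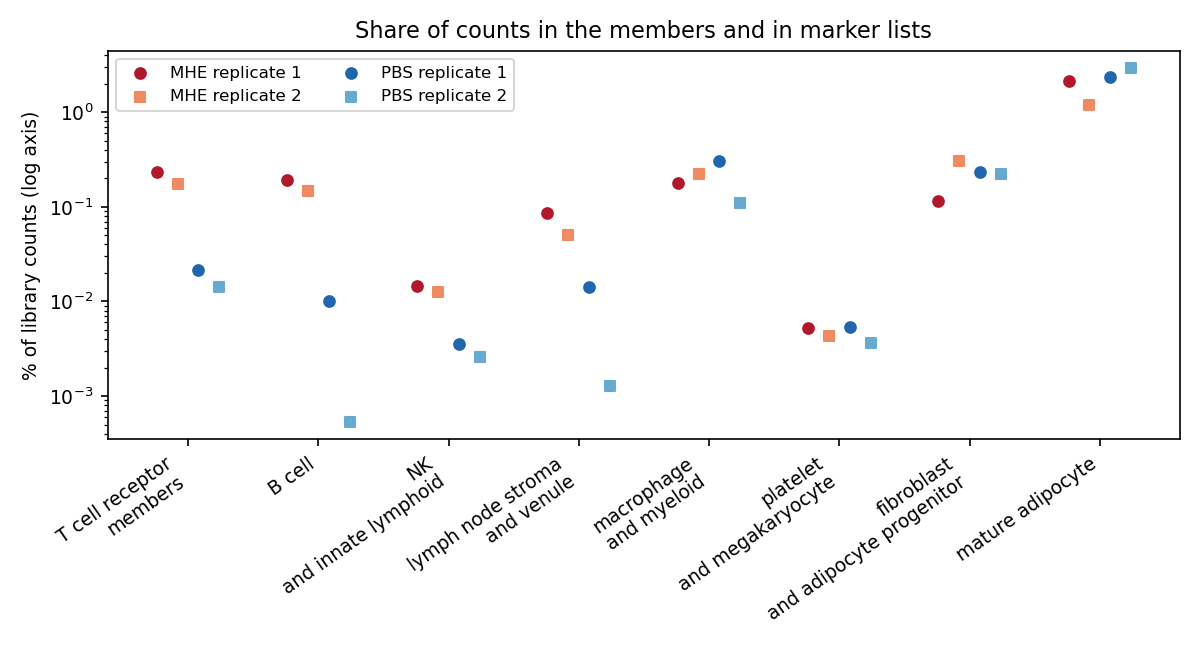
Share of each library's counts (percent, log axis) in the 31 T cell receptor genes and in 7 marker lists, with red and orange marks for MHE and dark and light blue marks for PBS libraries. The T cell receptor, B cell, NK and lymph node lists are higher in both MHE libraries, while the macrophage, platelet and progenitor lists overlap between the groups and the adipocyte list is lower in both MHE libraries.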

How the data were processed

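Each of the 4 libraries came with a table of unnormalized counts of reads for 26214 gene symbols, as the authors deposited them. The tools named in the submitters' processing notes are TopHat2, edgeR and limma, and the build is mm10. The counter, gene models and strand setting are not stated in the labels.

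MHE was compared with PBS over the whole table by the robust quasi-likelihood test of edgeR 4.0.16 (R 4.3.3), after filterByExpr (minimum count 10, minimum total 15) and TMM scaling. Benjamini-Hochberg adjustment covered the 16196 genes that passed, and genes under an adjusted p of 0.05 were called. Standard errors are log2 fold change over the root of F. The biological coefficient of variation was 33.6%. No libraries agreed within sampling noise (chi-square per degree of freedom of 134 or more). The p-values measure the spread between libraries, and nothing in the labels says more of their origin than that the replicates are biological.

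Ratios within a library used a pseudocount of 0.5 counts. Coordinates and promoter windows are from RefSeq (GRCm38.p6) and exon lengths from GENCODE M21, on the assembly of mm10. All 31 members are named, with values per library. Of the 4 other pathway genes with the smallest p, 3 are named and 1 is not reported here, while Stim1 and Plcg1 were chosen after their values were seen. Members, lists and tests were chosen with earlier results of these data known.

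Variations tried were other scalings (median-of-ratios, totals alone), DESeq2 1.42.0, limma-voom (limma 3.58.1), no filter, a stricter filter, a block on replicate number, and leaving out single libraries.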

Additional observations from a re-analysis of the deposited data

How the results depend on the processing

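Over all genes, 799 were called in either direction by edgeR and 2944 by DESeq2, and leaving out single libraries gave 0 to 2750 calls (0 without either MHE library, with 2352 and 2596 at an unadjusted p under 0.05). The T cell receptor genes called then numbered 0 to 31, against 24 with all libraries, and the cause of the difference between tools was not tested. Their median log2 fold change of 4.85 ranged from 4.16 to 5.88 with single libraries left out and from 4.83 to 5.10 under the other settings, and no member's fold change changed sign under any setting run. Of the other pathway genes 16 were called by edgeR, 35 by DESeq2, and 0 to 31 with single libraries left out. Library totals alone shifted the median log2 fold change of all genes to 0.14, against -0.02 with TMM factors. Without Thy1, Fyn, Lcp2, Prkcq, Cd247 and Ly9, a set chosen after seeing the data, the members' mean share of counts was 0.141% with MHE and 0.00475% with PBS, against 0.204% and 0.0177% for all 31. The genes left out had low log2 fold changes (1.24 to 2.71), so the MHE to PBS ratio of the shares rises by construction. Without Thy1, Fyn and Lcp2 the PBS share was 0.00837%. Without Cd247 and Sh2d1a, whose exons overlap other genes most, 22 of 29 members were called. The replicate number as a block gave 764 calls over all genes, 23 among the T cell receptor genes (Thy1, Txk and Trat1 lost, Cd2 and Sit1 gained) and a median log2 fold change of 5.06. The labels tie same-numbered libraries to nothing shared. Over genes, the deviations of MHE replicate 1 and PBS replicate 1 from their group means correlated at 0.12. With 2 libraries a group, the deviations of the other replicates are the same with opposite sign. The stricter filter also called Cd2 (adjusted p = 0.0491 by edgeR) and Sit1 (0.0495). With 2 libraries a group and PBS levels of 2 to 11 counts for genes such as Trat1, depth limits how well the largest fold changes are known.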
